A study of Mus musculus with 15 samples.

Results

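The receptor genes for neuromodulators and neuropeptides were examined in fast-spiking cortical interneurons of the mouse between postnatal day (P) 7 and P40. Members were all genes whose symbols name a serotonin, adrenergic, dopamine, muscarinic, nicotinic, opioid, nociceptin, cannabinoid, histamine, neuropeptide Y, somatostatin, corticotropin-releasing hormone, tachykinin or vasoactive intestinal peptide receptor, together with the cholecystokinin receptor Cckbr and the G protein-coupled receptor Gpr83. The rule found 64 of the 18193 genes that had a probe set annotated to 1 gene, and each was read from its probe set with the highest mean over the 15 arrays. Members were picked by symbol and not filtered by a measured value, but the rule was set with earlier results of these data known.

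RNA came from G42 mice, a transgenic line in which Gad1 regulatory sequence drives green fluorescent protein in a part of the parvalbumin class of interneurons. The groups were P7, P10, P15, P25 and P40, with 3 animals and 3 Affymetrix 430 2.0 arrays at each age, and the oldest group reached P45. All animals carried the same transgene, the labels name no treatment of them, and age was the only condition that set the groups apart. Fluorescent cells were picked by hand from dissociated primary somatosensory cortex, 23 to 85 per animal. Each value is thus that of a small pool of cells, and fewer cells of a type cannot be told apart from less RNA per cell. The number of cells picked also differed between ages. It was 52, 65 and 85 at P7, 34, 23 and 45 at P15, and 38, 60 and 54 at P40.

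Most neuromodulator receptors are G protein-coupled. Those coupled to inhibitory G proteins lower cyclic AMP and often reduce transmitter release, those coupled to stimulatory G proteins raise cyclic AMP, and the Gq-coupled ones act through phospholipase C. Nicotinic receptors and the Htr3 serotonin receptor are ion channels instead. Fast-spiking basket cells are known in the hippocampus to be excited by cholecystokinin through the receptor encoded by Cckbr, and cannabinoid receptor RNA in cortex is known above all from cholecystokinin-type basket cells.

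The deposited values are log2 expression values, and 5 was taken as the limit between signal and background. A gene counted as over the limit if its probe set exceeded 5 on at least 3 of the 15 arrays. Of the 64 receptor genes, 19 were over it, which is 29.7% against 53.1% of all 18193 genes. A probe set at background does not show that a transcript is absent, and levels of different probe sets cannot be set against each other.

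The 19 genes were Htr1b, Htr1d, Htr2c and Htr7 for serotonin, Drd1 and Drd4 for dopamine, Hrh3 for histamine, Chrm1, Chrna4, Chrna7 and Chrnb2 for acetylcholine, Cnr1 for endocannabinoids, Oprd1 and Oprl1 for opioids and nociceptin, Sstr3 and Sstr4 for somatostatin, Cckbr, Tacr3 and Gpr83. Of these, 8 exceeded 5 on all 15 arrays, namely Cckbr, Chrm1, Chrna4, Chrna7, Chrnb2, Cnr1, Oprl1 and Sstr4. The thinnest membership was that of Htr1d, with 4 arrays over the limit, all at P7 and P10. Sstr3 and Oprd1 had 5 each, and the nearest gene outside was Htr4, with 2 arrays. With a limit of 6 the count was 16, without Htr1d, Oprd1 and Sstr3, and with a limit of 4 it was 24, with Crhr2, Hrh1, Htr1f, Htr4 and Sstr2 added.

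The other 45 genes were at background, 40 of them without a single array over 5. Among serotonin receptors these were Htr1a, Htr1f, Htr2b, Htr3a, Htr3b, Htr4, Htr5a, Htr5b and Htr6, with values between 1.84 and 5.89. The nicotinic subunits Chrna1, Chrna2, Chrna3, Chrna5, Chrna6, Chrna9, Chrnb1, Chrnb3, Chrnb4, Chrnd, Chrne and Chrng lay between 1.93 and 3.29, and the muscarinic Chrm3 and Chrm4 between 1.96 and 2.46. Several of these nicotinic genes encode the subunits of the muscle receptor. Only 2 adrenergic genes were measured, Adra1b and Adra2c, and neither was over the limit (1.88 to 3.77). The other adrenergic genes had no probe set annotated to 1 gene, so the class was not surveyed. Htr2a, Chrm2, Chrm5 and Drd5 were likewise not among the 64 genes. Drd2 and Drd3 were not over the limit (2.05 to 2.51). For histamine, Hrh1, Hrh2 and Hrh4 read 2.09 to 5.29.

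Among the peptide receptors, none of the 4 neuropeptide Y receptor genes (Npy1r, Npy2r, Npy5r and Npy6r, 2.61 to 4.61) was over the limit. The same held for Crhr1 and Crhr2 (2.15 to 4.69) and for Vipr1 and Vipr2 (2.20 to 3.65). Sstr1, Sstr2 and Sstr5 lay between 2.02 and 5.46, Tacr1 and Tacr2 between 1.89 and 2.64, and the opioid receptor genes Oprk1 and Oprm1 between 2.59 and 4.18. The receptors for neuropeptide Y and corticotropin-releasing hormone were thus at background while the precursor genes of both peptides, Npy and Crh, were over the limit on 15 and 14 of the same arrays.

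**Figure D1:**
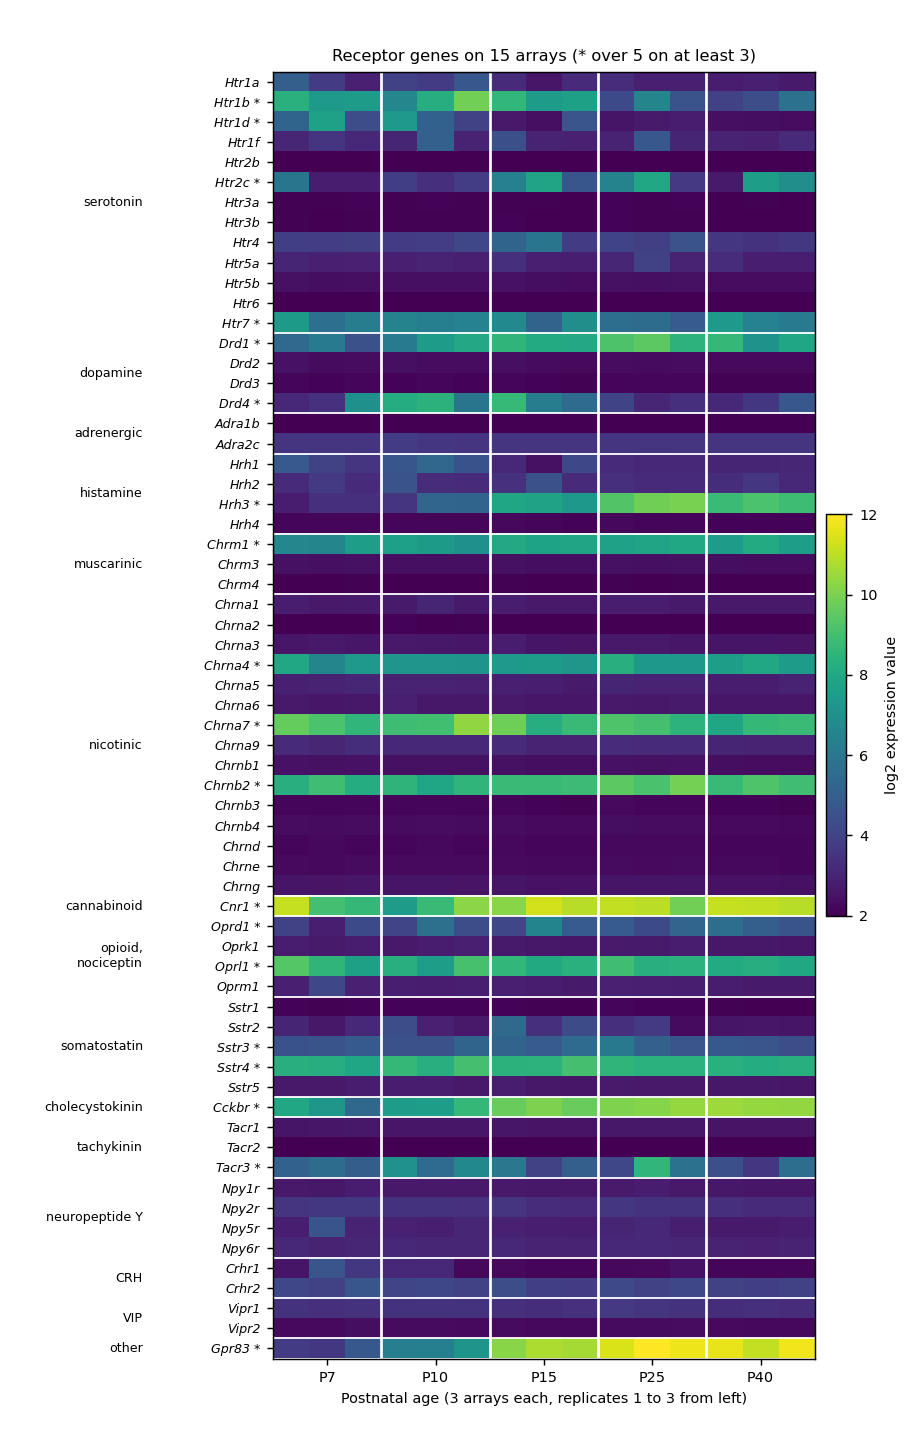
Log2 expression value of the 64 receptor genes (vertical, grouped by transmitter) on the 15 arrays (horizontal, P7 to P40 from left, 3 arrays per age). Colours end at 2 and 12, and an asterisk marks the 19 genes over 5 on at least 3 arrays. Gpr83, Hrh3 and Cckbr brighten with age, Htr1b and Htr1d darken, and most of the other genes are dark on every array.

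The identity of the cells was checked first. Pvalb, the gene of parvalbumin, averaged 14.28 ± 0.20 at P40 and 3.62 ± 0.72 at P7 (SD, n = 3 each), and Gad1, the GABA-synthesizing enzyme, averaged 14.98 ± 0.14 at P40 and 13.88 ± 0.46 at P7. Of 11 parvalbumin interneuron markers 10 were over the limit, all but Erbb4. The excitatory marker Slc17a7 stayed between 2.41 and 2.62 and Vip between 2.58 and 2.87 on all arrays, but other genes of their lists were over the limit. Markers of other interneuron classes were over the limit for 8 of 14 genes. Their summed level on the log2 scale was 13.451 to 14.695 at P40 and 13.513 to 14.572 at P7. It was 13.635 to 14.495 at P10, 14.026 to 15.798 at P15 and 14.588 to 15.336 at P25. All P25 sums were thus above all P7 sums, so this level was not constant over the ages. The astrocyte list had 6 of 8 genes over the limit, with summed levels of 6.34 to 8.50 at P40 and 6.68 to 7.91 at P7, and of 8.64 to 10.04 at P10 and 8.21 to 10.27 at P25. The oligodendrocyte list had 3 of 6, and its sums did not overlap, at 8.95 to 9.93 at P40 and 10.75 to 11.08 at P7. The microglial list (1 of 8) summed to 6.24 to 6.40 at P40 and 6.71 to 7.60 at P7, and the endothelial list (1 of 8) to 5.65 to 5.71 at P40 and 5.995 to 6.423 at P7, also apart. The oligodendrocyte precursor list had 1 of 5 genes over the limit and the blood list 0 of 2. The excitatory list had 2 of 10, and its sums overlapped, at 10.80 to 11.28 at P40 and 10.13 to 11.44 at P7. The part of these lists in the results was not tested.

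Some arrays stood apart. P40 replicate 1 read 1.72 for Sst, against 11.05 and 12.24 on the other P40 arrays. P15 replicates 2 and 3 had spike-in control medians of 2.50 and 2.49, against 8.94 or more on every other array. The difference between the 3′ and 5′ probe sets of the actin control, a measure of how far the amplified RNA was shortened, averaged 3.93 ± 0.55 at P40 and 5.77 ± 0.98 at P7, so it moved with age.

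The first comparison asked which receptor genes differed between P40 and P7. In limma's moderated test, adjusted over the 9663 genes of the whole table that were over the limit, 4 receptor genes rose (Gpr83, Hrh3, Cckbr and Drd1) and 2 fell (Htr1b and Htr1d), while 13 did not pass. Htr1d passed the limit through P7 and P10 arrays alone, and Gpr83 and Hrh3 without any P7 array. For these genes the filter itself favours the direction that was called. The 6 called of 19 are 31.6%, against 45.2% of all 9663 genes, 27.5% higher and 17.6% lower. With each array set to the same median over the tested genes, 2153 of 4355 calls over the table were higher, against 2662 of 4365 as deposited, and the receptor genes called higher numbered between 4 and 6 under every alternative run. The median difference of the 19 was 0.36 on the log2 scale, against 0.18 over all tested genes, and the median size without regard to sign 0.80 against 0.78.

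**Figure D2:**
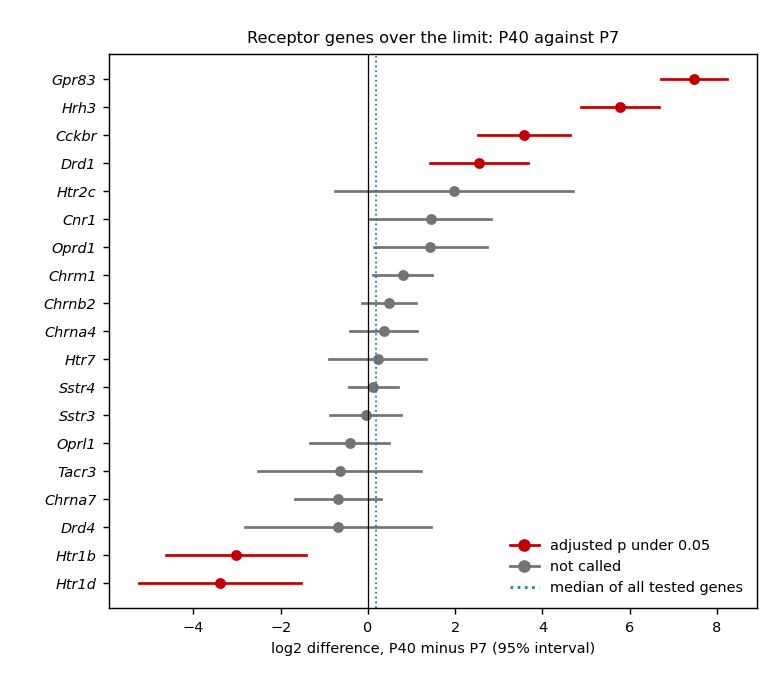
Log2 difference of P40 minus P7 (horizontal) for the 19 receptor genes over the limit (vertical, in order of the difference), as points with 95% confidence intervals. Red points passed an adjusted p of 0.05, grey ones did not, and the dotted line is the median of all tested genes at 0.18. Gpr83 at 7.48 and Hrh3 at 5.78 lie far right of the rest, and Htr1b at -3.03 and Htr1d at -3.39 far left.

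Over any pair of ages, the moderated F test called 9 of the 19 genes, 47.4% against 47.2% of all tested genes, which adds Drd4, Cnr1 and Chrnb2 to the 6 above. Between neighbouring ages, 1 receptor gene was called for P10 against P7 (Gpr83, higher; 3.6% of all tested genes were), 3 for P15 against P10 (Gpr83, Hrh3 and Cckbr, all higher; 11.4% in either direction), 2 for P25 against P15 (Hrh3 higher and Htr1b lower; 4.86%) and none for P40 against P25 by limma (0.673%, with 2 receptor genes at an unadjusted p under 0.05). The P40 and P7 arrays did not overlap for 5 genes that were higher, the 4 called and Oprd1, and for 2 that were lower, where 33.1% and 22.6% of all tested genes had arrays apart in these directions. The counts per step moved with single arrays. The count for P10 against P7 was 2 without P7 replicate 3 and 3 without P10 replicate 1, and that for P15 against P10 was 5 without P10 replicate 3. For P25 against P15 it was 0 without P15 replicate 3 or P25 replicate 3, and 1 without P7 replicate 2, P10 replicate 2, P15 replicate 1 or 2, P25 replicate 1 or 2, or any single P40 array.

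The largest difference among the 19 genes was that of Gpr83, a receptor for which a peptide made from the precursor proSAAS has been described as a ligand in the mouse. Array by array, P7 gave 3.73, 3.60 and 4.75, the P10 arrays 6.29, 6.31 and 7.16, the P15 arrays 10.21, 10.79 and 10.66, the P25 arrays 11.43, 12.08 and 11.75, and the P40 arrays 11.65, 11.06 and 11.80. All P7 arrays were under the limit, the P10 arrays were above every P7 array, the P15 arrays above every P10 array, and the P25 and P40 arrays overlapped. The P40 mean was 11.50 ± 0.39 and the P7 mean 4.03 ± 0.63, a log2 difference of 7.48 (SE 0.36, adjusted p = 2.49e-09). Because P7 was at background, the fold is a bound, at least 90.8-fold higher at P40.

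Gpr83 was also the only receptor gene called for P10 against P7, at least 3.00-fold higher at P10 (log2 difference 2.56, SE 0.36, adjusted p = 0.000683). At P15 it was 15.6-fold higher than at P10 (log2 difference 3.97, adjusted p = 2.44e-05). The step to P25 was 1.20 on the log2 scale and did not pass (adjusted p = 0.0658). A second probe set of Gpr83 that was over the limit gave 7.61 for P40 minus P7 (SE 0.52, adjusted p = 7.56e-08), 2.81 for P10 minus P7 and 3.14 for P15 minus P10. For P40 minus P25 it gave 0.90 (adjusted p = 0.576), against -0.25 for the brighter probe set. Its P40 arrays were all above its P25 arrays. This second probe set was chosen after seeing the data.

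The promoter sequences of the genes that rose most and of Htr1b are given as examples of genes that rose and fell between P7 and P40. They come from RefSeq on GRCm38.p6, 250 bases before and 50 after the annotated start, on the strand of the gene. They are Gpr83 at chr9:14859960-14860259 on the plus strand, Hrh3 at chr2:180104358-180104657 on the minus strand, Cckbr at chr7:105425481-105425780 on the plus strand and Htr1b at chr9:81633783-81634082 on the minus strand. Capitals mark matches, on either strand, to the TATA box (letters TATAAA), the GC box (letters GGGCGG), the half-site of the cyclic AMP response element (letters TGACG), an E-box (letters CAGCTG) or a nuclear receptor half-site (letters AGGTCA).
Gpr83: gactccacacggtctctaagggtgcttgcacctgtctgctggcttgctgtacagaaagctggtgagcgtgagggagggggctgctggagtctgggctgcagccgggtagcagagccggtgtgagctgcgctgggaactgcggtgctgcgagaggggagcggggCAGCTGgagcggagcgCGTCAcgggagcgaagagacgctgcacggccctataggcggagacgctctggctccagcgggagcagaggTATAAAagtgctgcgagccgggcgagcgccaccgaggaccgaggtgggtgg
Hrh3: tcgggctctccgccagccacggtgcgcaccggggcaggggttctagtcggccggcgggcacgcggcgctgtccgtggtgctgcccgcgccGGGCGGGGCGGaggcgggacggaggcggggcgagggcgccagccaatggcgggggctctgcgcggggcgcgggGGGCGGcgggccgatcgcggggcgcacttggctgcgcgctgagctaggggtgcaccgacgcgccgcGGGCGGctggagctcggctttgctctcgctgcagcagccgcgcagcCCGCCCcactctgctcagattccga
Cckbr: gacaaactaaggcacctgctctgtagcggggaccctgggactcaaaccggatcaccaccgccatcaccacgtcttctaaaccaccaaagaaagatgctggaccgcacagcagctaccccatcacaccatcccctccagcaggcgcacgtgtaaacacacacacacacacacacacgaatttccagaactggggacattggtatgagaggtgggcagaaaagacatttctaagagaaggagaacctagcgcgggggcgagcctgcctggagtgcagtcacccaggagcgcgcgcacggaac
Htr1b: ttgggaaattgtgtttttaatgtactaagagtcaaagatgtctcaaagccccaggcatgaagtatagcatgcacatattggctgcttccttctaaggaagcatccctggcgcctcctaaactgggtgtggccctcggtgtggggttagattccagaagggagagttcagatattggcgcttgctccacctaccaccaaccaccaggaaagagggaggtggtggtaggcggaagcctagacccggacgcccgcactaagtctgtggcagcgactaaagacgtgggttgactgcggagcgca

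The table held a promoter for 51 of the 64 receptor genes. The GC content of the 4 windows was 67.0% for Gpr83, 79.0% for Hrh3, 57.0% for Cckbr and 53.3% for Htr1b, against a median of 52.7% over all 32851 promoters. Counted from the annotated start, Gpr83 held the E-box at -87, the response element half-site on the other strand at -71, and the TATA box letters at -1. Of all promoters, 16.3% held this E-box, 20.8% the half-site and 13.6% the TATA box letters. Hrh3 held the GC box 5 times, of which 1 was on the other strand and 2 overlapped by a base, and 35.7% of all promoters held it at least once. No match was found in the windows of Cckbr and Htr1b, and the nuclear receptor half-site was in none of the 4 and in 16.3% of all promoters. The promoters of Drd1 and Htr1d, genes also called but not shown here, held the GC box. These matches describe the letters alone.

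Hrh3 encodes the inhibitory histamine receptor that limits the release of histamine and other transmitters. On its P7 arrays the gene read 2.80, 3.37 and 3.36, the P10 arrays 3.51, 5.27 and 5.23, the P15 arrays 7.90, 7.78 and 7.32, the P25 arrays 9.29, 9.84 and 9.999, and the P40 arrays 8.84, 9.15 and 8.90. Every array from P15 on was above every P10 array, and the P25 arrays were above all P40 arrays. At P40 the mean was 8.96 ± 0.17, against 3.18 ± 0.32 at P7, a log2 difference of 5.78 (SE 0.42, adjusted p = 1.31e-07) and at least 15.6-fold higher.

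The called steps of Hrh3 were those to P15 and to P25. Its P10 arrays were also all above its P7 arrays, but P10 minus P7 did not pass (1.49, interval 0.60 to 2.39, adjusted p = 0.0669). The P15 mean of 7.66 ± 0.31 was 3.00 above the P10 mean of 4.67 ± 1.01 on the log2 scale (adjusted p = 0.00123), and the P25 mean of 9.71 ± 0.37 was 4.12-fold above that of P15 (adjusted p = 0.0129). The latest step, P40 minus P25, was -0.75 with an interval of -1.64 to 0.15. The call for P25 was lost without P15 replicate 3 (1.87, adjusted p = 0.0709), P25 replicate 2 (1.98, adjusted p = 0.0585) or P25 replicate 3 (1.90, adjusted p = 0.0513). That for P15 was lost with the number of cells picked as a covariate (2.92, adjusted p = 0.0537). Without P15 replicates 2 and 3 together, which leaves 1 array at P15, the step was 3.23 to P15 and 1.81 to P25. Hrh3 had a single probe set.

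Cckbr, the Gq-coupled receptor for cholecystokinin and gastrin, was over the limit on every array. The P7 arrays read 7.96, 7.29 and 5.38, the P10 arrays 7.51, 7.60 and 8.67, the P15 arrays 9.67, 10.04 and 9.68, the P25 arrays 10.08, 10.19 and 10.43, and the P40 arrays 10.55, 10.43 and 10.40. The P7 arrays were spread widely and the P40 arrays lay close together, all above every P7 array. The P40 mean was 10.46 ± 0.08 and the P7 mean 6.88 ± 1.34, 11.97-fold higher at P40 (log2 difference 3.58, SE 0.49, adjusted p = 4.37e-05).

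At P15 Cckbr was 3.67-fold above its P10 level (log2 difference 1.87, adjusted p = 0.0278). It did not pass without P10 replicate 1 (1.66, adjusted p = 0.0975), P10 replicate 2 (1.71, adjusted p = 0.0958), P15 replicate 2 (1.75, adjusted p = 0.116) or P15 replicate 3 (1.93, adjusted p = 0.0769). The step was 0.55 with the number of cells picked as a covariate (adjusted p = 0.703) and 1.47 with the actin difference as a covariate (adjusted p = 0.171). With the mean of its 2 probe sets in place of the brighter one, the P40 minus P7 difference was 1.78, still called. The dimmer probe set was at background on every array (1.71 to 1.78), so the mean shrinks the difference and is not separate support.

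**Figure D3:**
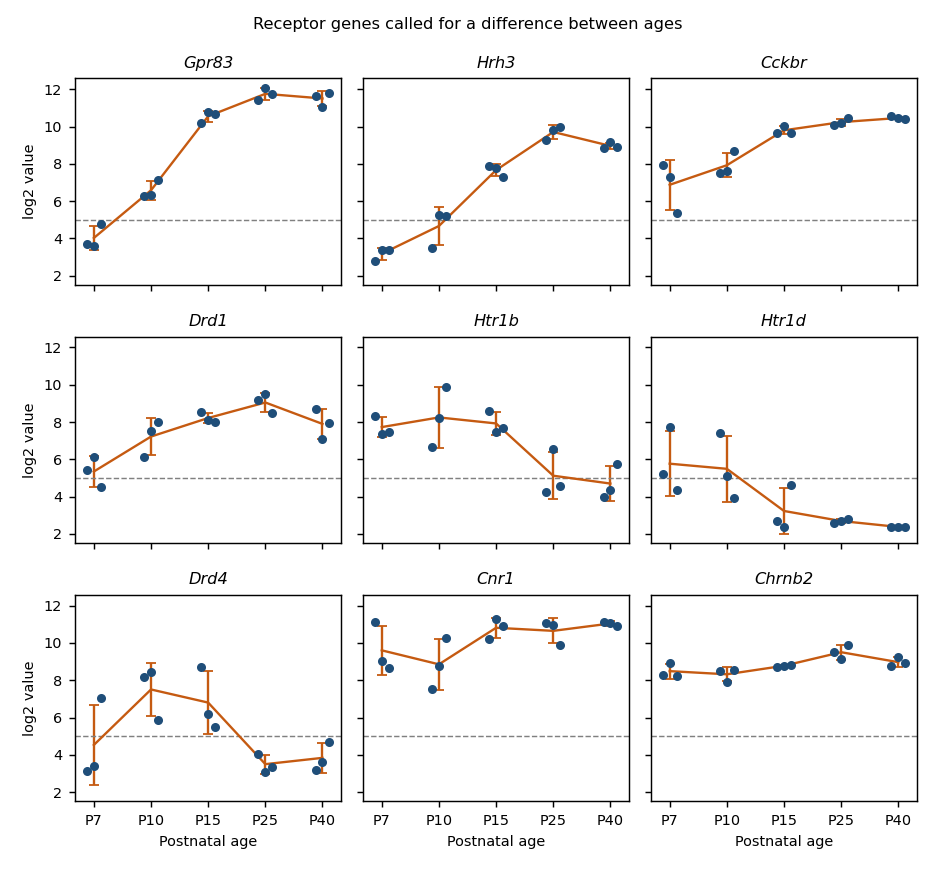
Log2 value (vertical) at each age (horizontal) of the 9 receptor genes called for a difference between ages. Points are single arrays, lines join the age means, bars are SD over 3 arrays and the dashed line is the limit of 5. Gpr83, Hrh3 and Cckbr climb up to P15 or P25 and then stay high, and Drd4 is high at P10 and P15. Htr1b is high up to P15 and near or under the limit at P40. Htr1d has 2 arrays over the limit at P7 and at P10, and none from P15 on.

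Among the dopamine receptors, Drd1, coupled to stimulatory G proteins, rose. Its P7 arrays gave 5.41, 6.14 and 4.50, the P10 arrays 6.13, 7.52 and 8.02, the P15 arrays 8.53, 8.10 and 8.02, the P25 arrays 9.20, 9.48 and 8.47, and the P40 arrays 8.67, 7.10 and 7.92. The P40 arrays were all above the P7 arrays, and P25 replicates 1 and 2 were the highest. The P40 mean of 7.90 ± 0.79 was 5.86-fold above the P7 mean of 5.35 ± 0.82 (log2 difference 2.55, SE 0.53, adjusted p = 0.00126). No single step passed. The second probe set of Drd1 over the limit gave 1.96 for P40 minus P7 (SE 0.72, adjusted p = 0.0378). Its course between these ages was another one, with -0.23 for P10 minus P7 against 1.87 for the brighter probe set, and a P25 mean of 7.06 below those of P15 (7.45) and P40 (7.40).

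Drd4, a dopamine receptor coupled to inhibitory G proteins, had its high arrays in the middle of the series. Array by array, P7 gave 3.15, 3.41 and 7.02, the P10 arrays 8.19, 8.43 and 5.89, the P15 arrays 8.71, 6.20 and 5.50, the P25 arrays 4.07, 3.07 and 3.37, and the P40 arrays 3.17, 3.63 and 4.71. All P10 and P15 arrays were over the limit and all P25 and P40 arrays under it, while P7 replicate 3 stood apart from the other P7 arrays. The F test passed (adjusted p = 0.0101), but P40 minus P7 did not (-0.69, interval -2.82 to 1.44), nor did P10 minus P7 (2.97, interval 0.84 to 5.11, adjusted p = 0.123) or P25 minus P15 (-3.30, interval -5.43 to -1.17, adjusted p = 0.0727). Its probe set is of a kind that can match more than 1 transcript.

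Of the 4 serotonin receptor genes over the limit, 2 fell and 2 did not pass. Htr1b and Htr1d both encode receptors coupled to inhibitory G proteins that are known on axon terminals. For Htr1b, the P7 arrays read 8.35, 7.36 and 7.48, the P10 arrays 6.64, 8.21 and 9.89, the P15 arrays 8.60, 7.48 and 7.69, the P25 arrays 4.23, 6.58 and 4.57, and the P40 arrays 3.98, 4.37 and 5.75. The arrays up to P15 were all above those at P25 and P40, with P25 replicate 2 and P40 replicate 3 the highest of the older ones. The P40 mean was 4.70 ± 0.93 and the P7 mean 7.73 ± 0.54, a log2 difference of -3.03 (SE 0.76, adjusted p = 0.00462), with no fold given because P40 replicate 3 alone was over the limit at P40.

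For Htr1b, P40 minus P7 was no longer called with the actin difference as a covariate (-2.47, adjusted p = 0.0798), and it was -1.59 with the mean of its 2 probe sets. The P25 mean of 5.12 ± 1.27 was below the P15 mean of 7.92 ± 0.60 (log2 difference -2.80, adjusted p = 0.0466), with no fold given because only P25 replicate 2 was over the limit at P25. That step was lost under 18 of 27 alternatives. Among these were the omission of P7 replicate 2 or 3, P10 replicate 2, any P15 array, P25 replicate 1 or 3, or any P40 array, with differences between -2.35 and -3.02 and adjusted p-values between 0.0511 and 0.155.

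For Htr1d, the P7 arrays read 5.23, 7.72 and 4.35, the P10 arrays 7.41, 5.12 and 3.95, the P15 arrays 2.67, 2.40 and 4.63, the P25 arrays 2.58, 2.71 and 2.79, and the P40 arrays 2.39, 2.39 and 2.35. From P15 on no array was over the limit, and at P7 and P10 2 of 3 were. At P40 the mean was 2.38 ± 0.02, against 5.77 ± 1.75 at P7, at least 1.70-fold lower (log2 difference -3.39, SE 0.88, adjusted p = 0.00572). With values under 5 set to 5 the difference was -0.98 and did not pass (adjusted p = 0.22), and the F call was lost too (adjusted p = 0.404). Since the gene entered the test through its young arrays alone, its fall is not separate from the filter. Its probe set too can match other sequences.

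Htr2c, the Gq-coupled serotonin receptor, varied widely between animals of the same age. On its P7 arrays the gene read 5.87, 2.75 and 2.79, the P10 arrays 3.85, 3.38 and 3.83, the P15 arrays 6.40, 7.82 and 4.67, the P25 arrays 6.46, 7.94 and 3.68, and the P40 arrays 2.73, 7.62 and 6.95. Arrays at background and arrays over 6 occurred together at P25 and P40. P40 minus P7 was 1.96 with an interval of -0.77 to 4.69 (adjusted p = 0.225). Without P40 replicate 1, the array that also read low for Sst, it was 3.48 and passed (adjusted p = 0.0315), while it was 3.00 without P7 replicate 1 and 1.04 without P40 replicate 2.

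Htr7, coupled to stimulatory G proteins, was over the limit on 14 arrays. In order of age its means were 6.44 ± 0.92, 6.41 ± 0.08, 6.31 ± 0.98, 5.35 ± 0.37 and 6.67 ± 0.66. P40 minus P7 was 0.22 (interval -0.89 to 1.33), and the arrays of the 2 ages overlapped.

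The 4 acetylcholine receptor genes that passed the limit, of 18, were over it on all arrays, and none was called between P40 and P7 by limma, where Chrm1 alone had an unadjusted p under 0.05 (0.0232). Chrna4 and Chrnb2 encode the subunits of the main heteromeric nicotinic receptor of the brain, Chrna7 the subunit of the homomeric one, and Chrm1 a Gq-coupled muscarinic receptor. Chrna4 ranged between 6.60 and 8.32 over the 15 arrays and Chrna7 between 7.87 and 10.35. For P40 minus P7 the difference was 0.36 for Chrna4 (interval -0.40 to 1.12) and -0.68 for Chrna7 (interval -1.67 to 0.31). These intervals leave room for changes of about the median size over the table.

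Chrnb2 passed the F test (adjusted p = 0.0231) with a narrow range. The P7 arrays read 8.30, 8.95 and 8.21, the P10 arrays 8.51, 7.90 and 8.55, the P15 arrays 8.73, 8.76 and 8.84, the P25 arrays 9.50, 9.11 and 9.90, and the P40 arrays 8.74, 9.24 and 8.93. P25 held the highest mean, 9.50 ± 0.39, and its arrays overlapped with those at P40. P40 minus P7 was 0.48 (interval -0.14 to 1.10). The F call was lost without P25 replicate 1 (adjusted p = 0.0634) or P25 replicate 3 (adjusted p = 0.0889), after quantile normalization (adjusted p = 0.0644) and with equal array medians (adjusted p = 0.0991).

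Chrm1 read 6.65, 6.55 and 7.62 at P7, against 7.49, 8.11 and 7.62 at P40, where P7 replicate 3 lay within the range of the P40 arrays. In order of age the means were 6.94 ± 0.59, 7.38 ± 0.32, 7.90 ± 0.12, 7.86 ± 0.14 and 7.74 ± 0.33. P40 minus P7 was 0.80 (interval 0.13 to 1.48, adjusted p = 0.0511), just short of the threshold. It passed without P7 replicate 3 (1.14, adjusted p = 0.00764) and without P10 replicate 3 (0.80, adjusted p = 0.0496). The same held with the number of cells picked as a covariate (1.18, adjusted p = 0.00665), array weights (adjusted p = 0.0282), no trend (adjusted p = 0.0371) or no filter (adjusted p = 0.0437). Under the other 20 of 26 alternatives it did not pass.

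Cnr1, the cannabinoid receptor that lowers transmitter release, was high throughout. Its P7 arrays gave 11.12, 9.03 and 8.65, the P10 arrays 7.53, 8.75 and 10.28, the P15 arrays 10.22, 11.31 and 10.91, the P25 arrays 11.09, 10.97 and 9.87, and the P40 arrays 11.14, 11.06 and 10.92. P7 replicate 1 was as high as the P40 arrays, and the spread was wide at P7 and P10 and narrow at P40. P40 averaged 11.04 ± 0.11 and P7 9.60 ± 1.33, a log2 difference of 1.44 (interval 0.05 to 2.83, adjusted p = 0.085). It was 2.20 without P7 replicate 1 (adjusted p = 0.00814) and 1.44 without P10 replicate 3 (adjusted p = 0.0445), both called.

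The F test for Cnr1 passed narrowly (adjusted p = 0.044). It failed under 20 of 27 alternatives, among them the omission of P7 replicate 2 or 3, P10 replicate 1 or 2, P15 replicate 2 or 3, P25 replicate 1 or 2, or any P40 array, with adjusted p-values between 0.0536 and 0.117.

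Among the peptide receptors other than Cckbr and Gpr83, none was called by limma between P40 and P7 or over all ages, and Oprd1 alone had an unadjusted p under 0.05 between P40 and P7 (0.0324). Sstr4, an inhibitory somatostatin receptor, varied least, between 7.93 and 9.06 over the 15 arrays. It read 8.35, 8.19 and 8.29 at P40, against 8.30, 8.24 and 7.93 at P7, and P40 minus P7 was 0.12 (interval -0.44 to 0.69). Oprl1, the nociceptin receptor, lay between 7.57 and 9.37 with a difference of -0.42 (interval -1.32 to 0.48). Both were far over the limit at every age, and their P40 and P7 arrays overlapped.

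Sstr3, another inhibitory somatostatin receptor, stayed close to the limit, between 4.39 and 6.05, with a P40 minus P7 difference of -0.06 (interval -0.87 to 0.76). Tacr3, the Gq-coupled receptor for neurokinin B, was over the limit on 10 arrays and ranged between 3.60 and 8.57, the top value being that of P25 replicate 2. Its P40 minus P7 difference was -0.65 (interval -2.52 to 1.22), and its probe set can match other sequences.

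Oprd1, the delta opioid receptor that binds enkephalins, read 5.62, 5.03 and 4.61 at P40, against 3.92, 2.82 and 4.24 at P7. The arrays did not overlap, but the difference of 1.43 (interval 0.14 to 2.72) did not pass (adjusted p = 0.0673). It passed without P15 replicate 2 (1.43, adjusted p = 0.0355), the array with its highest value of 6.52.

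The genes of the ligands were set beside their receptors. Of 19 tested precursor and ligand-enzyme genes, 7 rose and 1 fell between P40 and P7, against 27.5% and 17.6% of all tested genes, with a median difference of 0.77. The list was written with earlier results of these data known. Its genes named here beyond the leading calls were chosen after their values were seen. Cck, the precursor of the ligand of Cckbr, read 11.51, 12.02 and 12.35 at P40, against 8.98, 8.49 and 7.76 at P7. The arrays were far apart, and Cck was 11.7-fold higher at P40 (log2 difference 3.55, SE 0.31, adjusted p = 8.18e-07).

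Pcsk1n, the proSAAS precursor, was 3.23-fold higher at P40 (12.78 ± 0.08) than at P7 (11.08 ± 0.46; adjusted p = 0.000236). Tac1, the precursor of substance P, whose main receptor gene Tacr1 was at background, was 7.42-fold higher at P40 (13.94 ± 0.01) than at P7 (11.05 ± 0.98; adjusted p = 0.00196). Npy averaged 12.27 ± 0.18 at P40 and 10.92 ± 0.13 at P7 (difference 1.36, adjusted p = 0.0629). The 4 neuropeptide Y receptor genes were at background. Crh read 4.97, 11.84 and 12.73 at P40, against 11.64, 9.37 and 10.98 at P7, with P40 replicate 1 far below the rest, and both of its receptor genes were at background.

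Sst read 1.72, 11.05 and 12.24 at P40, against 12.92, 10.90 and 10.76 at P7. P40 replicate 1 alone was at background, and the difference of -3.19 had an interval of -7.19 to 0.81. Pnoc, the nociceptin precursor, read 8.49, 7.82 and 7.69 at P40, against 9.52, 8.35 and 7.52 at P7, overlapping values with a difference of -0.47 (interval -1.55 to 0.62). Vip, Tac2 and Pdyn, the precursors of vasoactive intestinal peptide, neurokinin B and dynorphin, were at background on every array, as was Chat, the enzyme that makes acetylcholine.

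**Figure D4:**
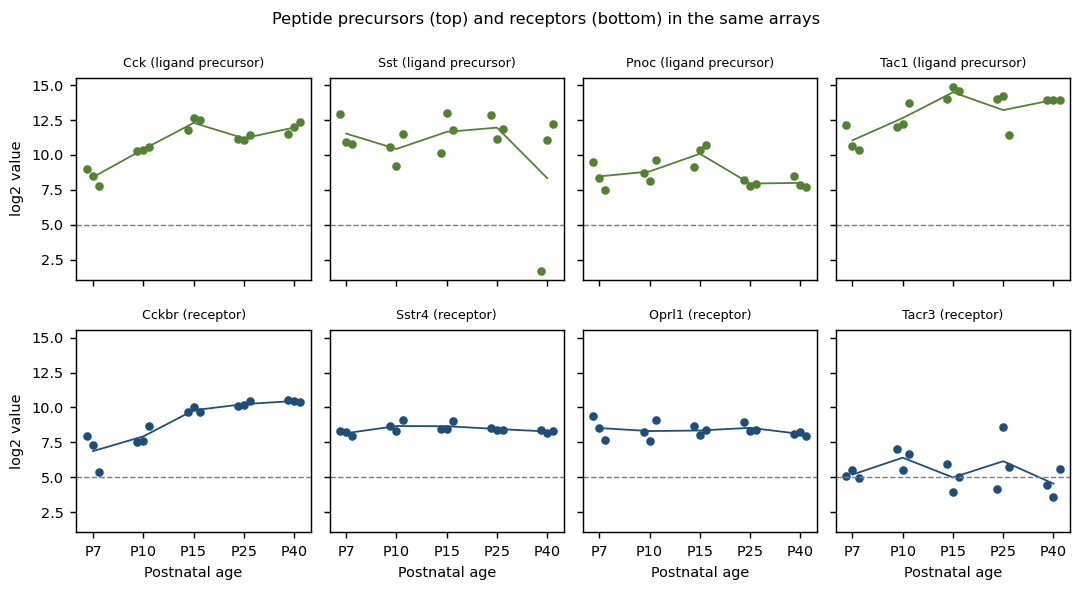
Log2 value (vertical) at each age (horizontal) of 4 peptide precursors (top, green) and 4 peptide receptors (bottom, blue). Tac1 stands above Tacr3, but Tacr3 is the receptor for neurokinin B, whose precursor gene is Tac2. Points are single arrays, lines join the age means and the dashed line is the limit of 5. Cck and Cckbr both climb up to P15, Sstr4 and Oprl1 stay level while Sst has a single P40 array at 1.72, and Tacr3 scatters around the limit.

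Of the enzymes that shape ligand levels, Mgll (0.30), Daglb (0.12) and Ache (0.05) were among those not called for P40 minus P7. Dagla was 1.70-fold higher at P40 (adjusted p = 0.0376). Faah averaged 6.48 ± 0.39 at P40 and 5.01 ± 0.62 at P7 (adjusted p = 0.0118). Napepld was also called higher (adjusted p = 0.00571), though its P40 mean of 4.56 ± 0.91 was under the limit. Abhd6, which breaks down an endocannabinoid, was 6.46-fold higher at P40 (11.74 ± 0.29) than at P7 (9.05 ± 0.51; adjusted p = 0.000132). Maoa, the monoamine oxidase that degrades serotonin and noradrenaline, averaged 4.06 ± 0.38 at P40 and 7.46 ± 0.70 at P7, at least 5.50-fold lower at P40 (adjusted p = 0.000186).

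Downstream of the receptors are the heterotrimeric G proteins. Of 11 tested alpha subunit genes 2 rose and 6 fell, against 27.5% and 17.6% of all tested genes, with a median difference of -0.91 (0.18 over all tested genes), and of 11 beta and gamma subunit genes 2 rose and 6 fell, with a median of -1.15. The 2 alpha genes called higher became 0 with the mean of probe sets or the actin covariate, and the 6 called lower became 3 with the number of cells as a covariate. The inhibitory subunit genes Gnai2 and Gnai3 fell, 3.03-fold (8.95 ± 0.76 at P40 and 10.55 ± 0.02 at P7, adjusted p = 0.000646) and 6.18-fold (6.57 ± 0.44 at P40 and 9.20 ± 0.88 at P7, adjusted p = 0.00222). The stimulatory subunit Gnas rose 1.72-fold (14.25 ± 0.08 at P40 and 13.47 ± 0.35 at P7, adjusted p = 0.00244). Its relative Gnal rose 1.48-fold (adjusted p = 0.0327), but it was not called when any of P7 replicate 2 (0.52) and 3 (0.43) and P40 replicate 1 (0.52) and 3 (0.52) was left out, nor with quantile normalization (0.38) or equal array medians (0.35) on the log2 scale. With the mean of probe sets Gnai2 gave -0.53 and was not called (adjusted p = 0.203).

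Among the gamma subunits, Gng4 was 16.4-fold lower at P40 (8.79 ± 1.17) than at P7 (12.83 ± 0.18; adjusted p = 5.59e-06), and Gng10 was 7.12-fold lower (adjusted p = 5.09e-05). Gng13 was 4.48-fold higher (11.15 ± 0.52 at P40 and 8.99 ± 0.34 at P7, adjusted p = 9.65e-05). Gnb5, the beta subunit that pairs with RGS proteins of the Rgs7 family, was 2.27-fold higher (adjusted p = 0.00578), but 0.58 on the log2 scale and not called with the actin covariate (adjusted p = 0.207).

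RGS proteins end G protein signals by speeding the hydrolysis of GTP. Of 15 tested genes of such regulators 1 rose and 5 fell, against 27.5% and 17.6% of all tested genes, with a median difference of -0.45. Rgs7bp, which anchors the Rgs7 family at the membrane, was 3.72-fold higher at P40 (14.01 ± 0.03) than at P7 (12.12 ± 0.23; adjusted p = 2.75e-06). Rgs19 was 7.52-fold lower at P40 (adjusted p = 9.94e-06), and Gpsm1, which binds inhibitory alpha subunits, 3.70-fold lower (adjusted p = 2.81e-05). Of 7 receptor kinase and arrestin genes 1 rose and 3 fell, against 27.5% and 17.6% of all tested genes, with a median of -0.68. The 3 called lower became 1 without P7 replicate 1. Arrb1, a beta-arrestin, was 3.35-fold higher (adjusted p = 0.00129) and Grk6 was 1.60-fold lower (adjusted p = 0.00203). Arrdc1 averaged 5.01 ± 0.72 at P40, at the limit, and 6.24 ± 0.27 at P7 (adjusted p = 0.0184). Its call was lost without P7 replicate 1 (-1.08, adjusted p = 0.0592) or P40 replicate 3 (-0.83, adjusted p = 0.103).

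Genes that make and break cyclic nucleotides moved in both directions. Of 19 tested adenylyl cyclase and phosphodiesterase genes 8 rose and 6 fell, against 27.5% and 17.6% of all tested genes, with a median difference of 0.18, equal to that of all tested genes. Adcy9 was 7.13-fold higher (10.59 ± 0.30 at P40 and 7.76 ± 0.40 at P7, adjusted p = 1.56e-06), and Pde9a, which breaks down cyclic GMP, 8.11-fold higher (8.90 ± 0.30 at P40 and 5.88 ± 0.31 at P7, adjusted p = 7.98e-06). Adcy1, the calcium-stimulated cyclase, was 1.94-fold lower (adjusted p = 0.00045) and Pde7a 3.82-fold lower (adjusted p = 0.00168).

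Of 16 genes of protein kinase A, its anchors and its substrates 4 rose and 6 fell, against 27.5% and 17.6% of all tested genes, with a median of -0.23. The 4 called higher became 2 when any 1 of P7 replicates 1 and 2 and the 3 P40 arrays was left out, 1 with equal array medians and 0 with the actin covariate. The regulatory subunit Prkar2b was 5.49-fold lower at P40 (10.82 ± 0.23) than at P7 (13.28 ± 0.27; adjusted p = 1.64e-06), and Ppp1r1a, a phosphatase inhibitor that the kinase activates, 3.92-fold lower (adjusted p = 0.000144). The anchors Akap11 and Akap6 were 2.02-fold (adjusted p = 0.00931) and 1.53-fold (adjusted p = 0.0199) higher. The call of Akap6 was lost without P7 replicate 1 (0.51), P40 replicate 1 (0.58) or P40 replicate 2 (0.56) on the log2 scale, and with quantile normalization (0.44) or equal array medians (0.40).

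In the phospholipase C and protein kinase C list, 2 of 9 tested genes rose, a share near the 27.5% of all tested genes, and 7 did not pass, with a median of 0.35. The genes that rose were Prkcb, 1.93-fold higher (13.11 ± 0.13 at P40 and 12.16 ± 0.09 at P7, adjusted p = 0.000877), and Prkca, 1.74-fold higher (11.09 ± 0.12 at P40 and 10.29 ± 0.12 at P7, adjusted p = 0.00339). With the mean of its probe sets Prkcb gave -0.01.

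While the nicotinic subunit genes were not called between P40 and P7, 2 of 8 tested genes of their partner proteins rose and 1 fell, against 27.5% and 17.6% of all tested genes, with a median of 0.58. Both shares lie near those of all tested genes, and the 2 called higher became 4 without P7 replicate 1 and 1 without P7 replicate 2, while the 1 called lower became 0 under 9 of 27 alternatives. Lynx1, a membrane-anchored protein that dampens nicotinic receptors, was 2.20-fold higher at P40 (13.27 ± 0.12) than at P7 (12.13 ± 0.28; adjusted p = 2.99e-05), and Lypd6, a related protein, 3.24-fold higher (adjusted p = 0.00962). The call of Lypd6 was lost without P7 replicate 2 (1.38, adjusted p = 0.0504), with the number of cells picked as a covariate (1.17, adjusted p = 0.0618) and with the actin difference as a covariate (0.59, adjusted p = 0.362). Lypd1 averaged 3.75 ± 0.49 at P40 and 4.86 ± 0.59 at P7 (adjusted p = 0.036), around and under the limit. Its call was lost without P40 replicate 1 (-1.13, adjusted p = 0.0732) or P40 replicate 3 (-0.85, adjusted p = 0.144). The same held with values under 5 set to 5 (-0.13, adjusted p = 0.479). The difference between subunits and partners was not tested.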

How the data were processed

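Expression was measured on Affymetrix 430 2.0 arrays after 2 rounds of amplification from 0.3 to 1 ng of RNA. The deposited values are log2 expression values per probe set, made by the authors with GCRMA per the submitters' processing notes, and its version is not given in the sources used here. Their lowest value was 0.51 and the highest 16.13. Medians per array lay between 3.21 and 3.46, with 33.8 to 35.0% of probe sets over 5 on each array. They were used as deposited. Arrays have no read depth, and their number limits the precision.

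Of 45101 probe sets 34945 were annotated to 1 gene, and 932 with several genes, 9160 with none and 64 controls were left out. A further 12 RefSeq symbols that match the rule had no such probe set and were not analysed here. Tests used limma 3.58.1 in R 4.3.3 fitting 1 mean per age to all 15 arrays, with trended empirical Bayes moderation, 10 residual degrees of freedom and a median of 4.85 from the prior. P40 minus P7 and the 4 steps between ages were contrasted, two-sided, with Benjamini-Hochberg adjustment over 9663 genes, and genes with an adjusted p under 0.05 were called. The fit was tested on simulated data with 200 changed genes. For P40 minus P7 it called 29% of the genes with a true log2 change of 1 and 92% of those with a change of 3. A fold is given where both means, and at least 2 of 3 arrays of each age, exceed 5. It is a bound against 5 where all 3 arrays of an age are at or under it.

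The members and lists were chosen with earlier results of these data known. Receptor genes over the limit are all named. In each companion list the 2 called genes of smallest adjusted p are named per direction, and Pvalb, Gad1, Slc17a7, Sst, Vip, Npy and Cck were named whatever their values. In all, 27 alternatives were run, 15 of which left out an array. Replicate numbers did not pair the arrays. Motifs were searched in RefSeq promoters, since no genome was used.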

Additional observations from a re-analysis of the deposited data

How the results depend on the processing

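The 4 receptor genes called higher at P40 than at P7 became 4 to 6 under the 27 alternatives run, and Gpr83, Hrh3, Cckbr and Drd1 each kept their call in all of them. The 2 called lower became 20 with no filter, where 18 of the 20 were genes not over the limit, with a median size of 0.08 on the log2 scale, and 1 with a filter at 7, with values under 5 set to 5, with the mean of probe sets or with the actin covariate. For P10 minus P7 (1 called) the count was 2 with equal array medians or array weights, 3 with the number of cells picked as a covariate, and 1 to 3 with an array left out. For P15 minus P10 (3 called) it was 1 with the number of cells or without P15 replicates 2 and 3 together, and 2 to 5 with an array left out. For P25 minus P15 (2 called) it was 1 with no filter, the mean of probe sets or no trend, 4 with array weights, 0 without P15 replicates 2 and 3 together, and 0 to 3 with an array left out. For P40 minus P25 (0 called) it was 21 with no filter, all of them genes not over the limit, and 1 with array weights. The F test (9 called) gave 19 with no filter, 5 with the mean of probe sets and 7 to 9 with an array left out. Gene by gene, the changes that follow are a selection from the receptor genes and the leading calls of each list. Among all such genes called for P40 minus P7, Prkcb alone changed sign, with the mean of probe sets (-0.0077, against 0.95). Of those not called, Drd4 (-0.69), Tacr3 (-0.65), Chrna4 (0.36), Htr7 (0.22) and Sstr4 (0.12) changed sign with the actin covariate (1.24, 0.89, -0.14, -0.12 and -0.19), Htr7 and Sstr4 also with quantile normalization, Sstr4 with equal array medians, Drd4 and Sstr4 with the number of cells, and Drd4, Htr7, Oprl1 and Sstr3 with an array left out. Calls lost with the actin covariate, beside those named with the genes, were those of Gnas (0.48), Gnal (0.34), Arrb1 (1.11), Arrdc1 (-1.40), Akap11 (0.48), Akap6 (0.54) and Prkca (0.62), and the F call of Htr1d (adjusted p = 0.0577). With the number of cells they were those of Gnal (0.31), Arrdc1 (-1.10) and Lypd1 (-1.03), and the F call of Htr1d (adjusted p = 0.061). With the mean of probe sets they were those of Gnas (0.13), Gnal (0.37), Akap6 (0.20), Grk6 (-0.06) and Pde7a (-0.47). The 7 ligand genes called higher became 4 with the actin covariate and 5 to 9 with an array left out. Where no cause is given, it was not tested.

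With the replicate number as a block, P25 minus P15 gave 1 receptor call and P40 minus P7 4159 calls over all genes, against 4365. The numbers do not pair the arrays. Of 30 same-number pairs 3 had correlated deviations over 0.1 (range -0.40 to 0.27), and no array correlated best with its own number. Small pools of 23 to 85 cells, 3 arrays per age, 1 passing probe set for 15 of the 17 genes with several, and background values that drift with age limit what these values show.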
